A study of Homo sapiens with 3 samples.

Results

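The CDK inhibitor genes encode the proteins that hold cyclin-dependent kinases in check, and they were chosen by gene name, as all probes that the platform annotation assigns to 8 listed genes. Of these, 7 genes with 14 probes were analysed here, out of 20043 genes with 30110 named probes, and 1 listed gene was not analysed here. All 7 genes had at least 1 probe above background on at least 1 array, as did 10441 of all genes. The 7 genes are CDKN1A, CDKN1B and CDKN1C of the CIP/KIP family, CDKN2A, CDKN2B and CDKN2D of the INK4 family, and the phosphatase gene CDKN3. The cells were HCC-LM3, a cultured line of human hepatocellular carcinoma (HCC) described in the labels as epithelial and adherent. They were kept for 48 h with cyclopamine at 20 μM, which blocks the Hedgehog (Hh) receptor component SMO, with GANT61 at 20 μM, which acts on the Gli transcription factors, or with the vehicle DMSO alone. RNA of each condition was read on 1 Illumina BeadChip array, so no difference between the 3 arrays has a replicate check and no p-value is given. The values are signal intensities on a linear scale, normalized between the arrays by the authors.

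CDK inhibitors set the pace of the cell cycle. INK4 proteins bind CDK4 and CDK6 and keep the D cyclins off them, whereas CIP/KIP proteins bind complexes of a cyclin with its kinase, above all those of CDK2. Active kinases phosphorylate RB1 and its relatives, the pocket proteins, and so set E2F factors free to switch on the genes of DNA replication. CDKN1A is a textbook target of p53, while CDKN1B is controlled largely through destruction of its protein.

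The promoters of the genes are shown because the study asks which genes answer to the Gli factors. A further reason is that the array has CDKN2A probes designed on transcripts from 2 starts. RefSeq windows of 300 bases, from 250 before a transcription start to 50 after it on GRCh38.p14, were found for 6 of the 7 genes, with 7 windows in all. Capitals mark motifs that a search on both strands found. These were the GC box GGGCGG, to which SP1 binds, the cell cycle homology region (CHR) as TTTAAA or TTTGAA, an E2F site (TTTCCCGC, TTTGGCGC, TTTCGCGC or TTTGCCGC), the TATA box TATAAA and the Gli consensus GACCACCCA.
CDKN1A, chr6:36678464-36678763, plus strand: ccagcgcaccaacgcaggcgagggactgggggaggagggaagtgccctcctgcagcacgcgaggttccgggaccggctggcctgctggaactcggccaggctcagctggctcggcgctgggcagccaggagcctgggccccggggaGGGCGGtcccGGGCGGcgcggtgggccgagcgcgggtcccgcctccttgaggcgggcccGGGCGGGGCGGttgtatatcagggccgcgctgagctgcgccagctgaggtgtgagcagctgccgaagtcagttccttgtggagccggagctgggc
CDKN2A start for p16, chr9:21974808-21975107, minus strand: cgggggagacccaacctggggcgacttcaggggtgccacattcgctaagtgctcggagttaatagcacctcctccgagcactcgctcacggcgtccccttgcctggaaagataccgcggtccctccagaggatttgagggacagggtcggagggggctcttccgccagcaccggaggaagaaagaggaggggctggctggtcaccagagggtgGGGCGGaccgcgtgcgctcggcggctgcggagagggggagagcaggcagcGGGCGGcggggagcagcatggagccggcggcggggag
CDKN2A start for ARF, chr9:21995275-21995574, minus strand: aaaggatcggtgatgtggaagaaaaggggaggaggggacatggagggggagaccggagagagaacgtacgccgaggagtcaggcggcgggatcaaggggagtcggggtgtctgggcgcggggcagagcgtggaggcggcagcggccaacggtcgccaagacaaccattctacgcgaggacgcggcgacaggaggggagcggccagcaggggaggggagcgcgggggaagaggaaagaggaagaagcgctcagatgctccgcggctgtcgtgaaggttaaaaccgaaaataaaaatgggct
CDKN1B, chr12:12717118-12717417, plus strand: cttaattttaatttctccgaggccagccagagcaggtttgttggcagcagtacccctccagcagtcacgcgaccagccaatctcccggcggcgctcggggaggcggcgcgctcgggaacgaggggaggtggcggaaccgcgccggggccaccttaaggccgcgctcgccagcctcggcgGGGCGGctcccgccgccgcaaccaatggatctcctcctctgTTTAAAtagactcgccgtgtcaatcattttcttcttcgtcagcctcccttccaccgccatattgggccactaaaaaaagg
CDKN3, chr14:54396757-54397056, plus strand: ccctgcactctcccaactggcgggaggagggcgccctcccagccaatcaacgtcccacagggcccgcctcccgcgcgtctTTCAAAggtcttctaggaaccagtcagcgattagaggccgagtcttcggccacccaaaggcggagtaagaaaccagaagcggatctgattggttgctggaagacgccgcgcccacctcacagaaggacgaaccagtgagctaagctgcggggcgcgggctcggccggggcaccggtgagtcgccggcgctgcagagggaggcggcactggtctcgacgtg

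The CDKN1A window was rich in G and C (74.3%, where the median of all 35116 windows was 58.7%) and held 4 GC boxes, of which the ones 45 and 40 bases before the start overlap by a base. The other windows of the family also lay above that median, at 62.3% to 69.0%. CDKN2D held 3 GC boxes and CDKN2B held 2, in windows that are not printed. The p16 window of CDKN2A held 2 GC boxes and the ARF window none. A GC box occurs in 45.0% of all windows. CDKN1B held 1 GC box and the CHR letters TTTAAA, found in 12.2% of all windows, and CDKN3 held TTTGAA on the opposite strand, found in 15.2%. None of the 7 windows held the exact Gli consensus, which 83 of all windows (0.236%) hold, nor the E2F letters (3.31%) or the TATA box (11.5%). Such matches describe the letters of these windows only, and the p53 sites for which CDKN1A is known lie further upstream.

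The deposited values were normalized to nearly the same sorted values, so 15785 to 15786 of 47319 probes were above background on each of the 3 arrays. This likeness follows from the normalization and does not show that the arrays detected equally well. The limit of background was set at 1.5 times the most common intensity of an array, which is 63.75. Of the cell type markers, the epithelial genes EPCAM, KRT8 and KRT18 were above background and CDH1 and KRT19 were not. Of 8 hepatocyte markers only ALB was above background, at 69.6 with DMSO, and AFP was not. None of 4 endothelial markers, 2 of 6 fibroblast markers (COL1A1 and PDGFRB) and 1 of 5 immune markers were above background. The immune marker was CD68 (PTPRC, CD3E, CD14 and LYZ were not above background), a lysosomal protein gene also used as a macrophage marker, which had 238 with DMSO, 509 after cyclopamine and 1032 after GANT61. The summed intensity of the 5 immune markers went from 417 to 703 and 1217 in the same order, and that of the 5 epithelial markers from 2109 to 993 and 1009. The epithelial sum followed KRT8 alone, which had 1423, 335 and 286, whereas EPCAM had 401, 387 and 403 and KRT18 had 183, 181 and 239. The other CD68 probes had 85.4, 132 and 1679, and 45.4, 43.9 and 79.9, so that the size of its difference depends on the probe. Their part in the results was not tested. The 10 reference genes read here, such as GAPDH and ACTB, had a median log2 difference from DMSO of −0.67 with cyclopamine and −0.72 with GANT61, while the median of all genes was 0.032 and 0.022. Scaling on these reference genes subtracts their median log2 difference, taken separately in each comparison. It would therefore raise every log2 difference from DMSO by 0.67 and 0.72, but would change those between the treated arrays by only −0.020. As the medians are taken separately, these shifts are not those of a single scaling of the arrays.

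CDKN1A, which encodes the CDK2 inhibitor p21, had the largest change of the family and was high on the GANT61 array alone. Its brighter probe had an intensity of 1015 with DMSO, 1264 after cyclopamine and 6506 after GANT61. The DMSO and cyclopamine arrays lay close together, and the GANT61 array stood far above both. This is a 6.41-fold higher intensity with GANT61 than with DMSO, a log2 difference of 2.68, and a 5.15-fold higher intensity than with cyclopamine at the same dose and time, a log2 difference of 2.36. With cyclopamine the log2 difference from DMSO was 0.32. As the array reads RNA from all cells together, more transcript per cell and more cells with the transcript cannot be told apart. Ordered by their log2 difference, CDKN1A ranked 15 from the top among 10292 genes in GANT61 minus DMSO, 17 among 10141 in GANT61 minus cyclopamine, and 3157 among 10236 in cyclopamine minus DMSO. The spread between probe pairs of one gene of like brightness, scaled from the median absolute deviation, corresponds to an SD of 0.42 for a log2 difference between GANT61 and DMSO and of 0.21 between GANT61 and cyclopamine. That spread covers probes and not cultures. The whole change rests on 1 probe, since the other CDKN1A probe, designed on another transcript of the gene, was below the limit of background on every array, at 45.4 with DMSO, 38.5 after cyclopamine and 50.1 after GANT61. With the mean of both probes the log2 difference of CDKN1A was 1.41 between GANT61 and DMSO.

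**Figure D1:**
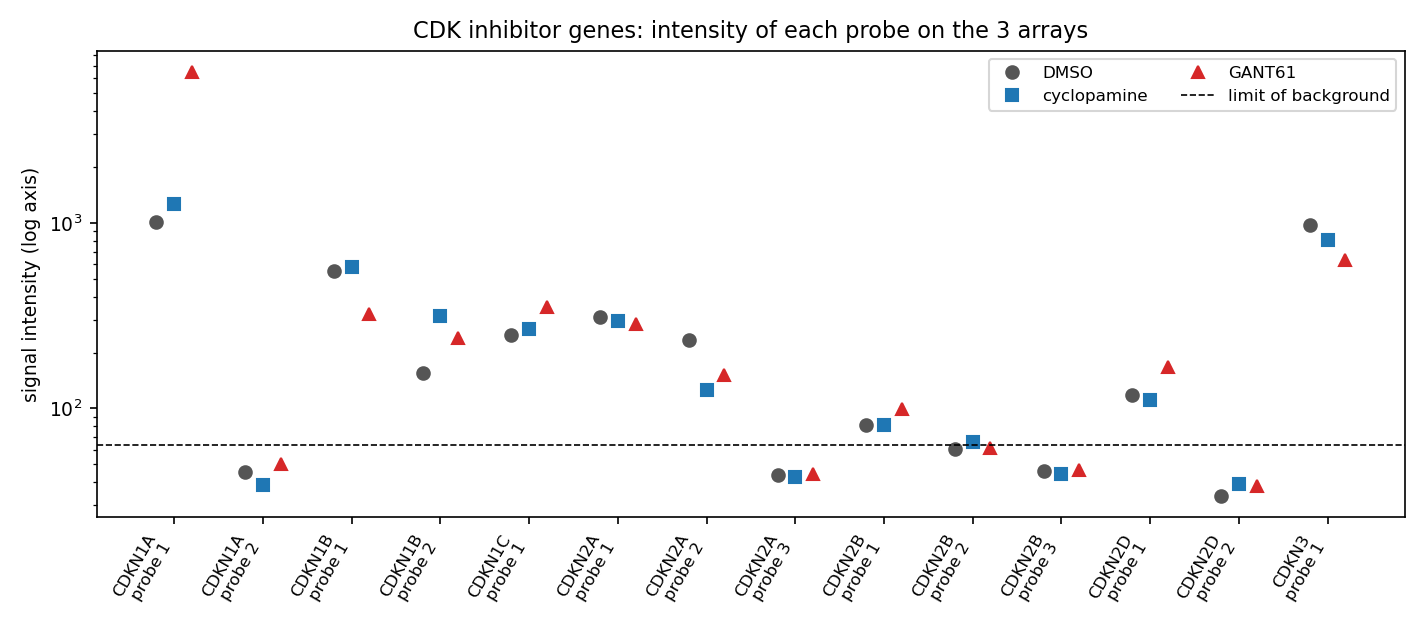
Signal intensity (log axis) of each of the 14 probes of the 7 CDK inhibitor genes on the DMSO, cyclopamine and GANT61 arrays, 1 point per array, with the limit of background at 63.75 as a dashed line. CDKN1A probe 1 is at 6506 on the GANT61 array and at 1015 and 1264 on the other arrays, and 4 probes lie below the limit on every array.

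Beyond CDKN1A, no CDK inhibitor gene changed by 2-fold in any of the 3 comparisons when read by its brightest probe. At least 2-fold higher were 0 of the 7 genes with cyclopamine, beside 4.8% of all genes above background, and 1 with GANT61, beside 8.28%. At least 2-fold lower were 0 with cyclopamine and 0 with GANT61, where all genes had 6.44% and 9.77%. Between the treated arrays, 1 of the 7 was at least 2-fold higher with GANT61 (2.38% of all genes) and 0 lower (3.5%). With 7 genes, counts of 0 and 1 are near what these shares give. The median log2 difference of the family was 0.00037 with cyclopamine and 0.29 with GANT61, where all genes had 0.032 and 0.022. Without CDKN1A the log2 differences from DMSO lay between −0.28 and 0.11 with cyclopamine and between −0.77 and 0.50 with GANT61. Both of these comparisons use the same DMSO array. Scaled on the reference genes, 3106 genes were higher and 120 lower with cyclopamine, against 491 and 659 as deposited, and 3682 higher and 224 lower with GANT61, against 852 and 1006. Under that scaling 4 of the 7 CDK inhibitor genes passed 2-fold with GANT61, namely CDKN1A, CDKN1C (1.22), CDKN2B (1.00) and CDKN2D (1.22).

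**Figure D2:**
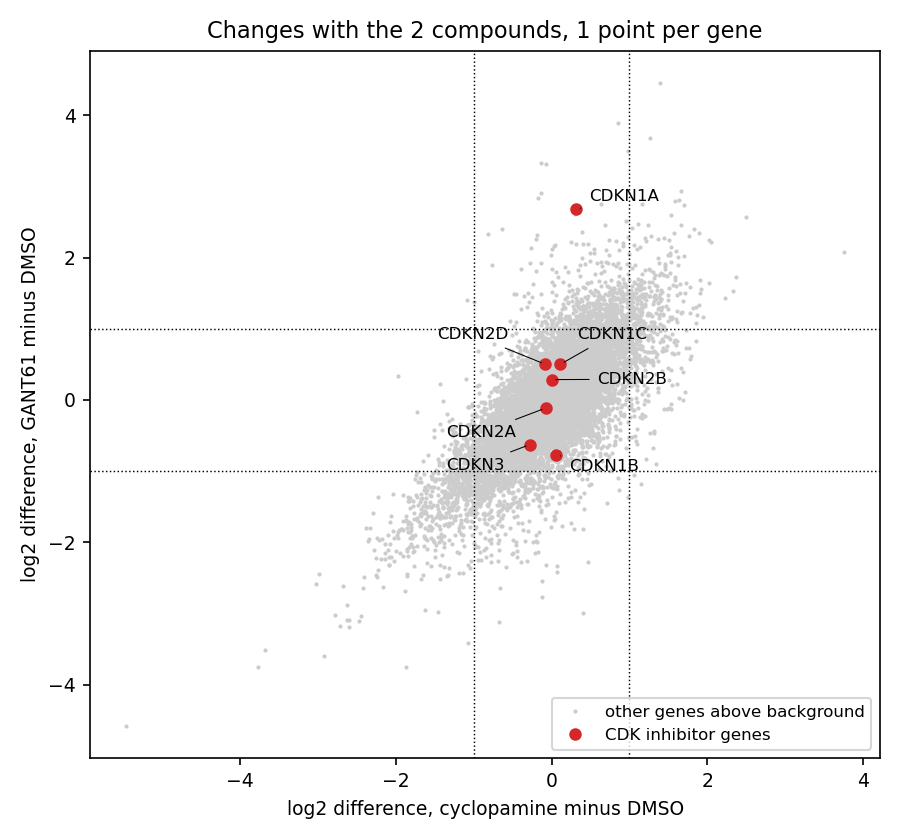
Log2 difference from the DMSO array with cyclopamine (horizontal) and with GANT61 (vertical) for each of 10441 genes above background on at least 1 array, with the 7 CDK inhibitor genes in red and dotted lines at 2-fold. CDKN1A is at 0.32 and 2.68, and the other 6 lie inside the 2-fold lines, though both axes share the DMSO array.

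The other CIP/KIP genes were read less firmly. CDKN1B encodes p27, which binds CDK2 complexes in resting cells, and its 2 probes, both designed on the same transcript, went different ways. The brighter had an intensity of 552 with DMSO, 576 after cyclopamine and 324 after GANT61, and the dimmer had 155, 316 and 240. Thus the brighter probe was low on the GANT61 array alone and the dimmer was low on the DMSO array alone. The log2 differences from DMSO were 0.060 with cyclopamine and −0.77 with GANT61 for the brighter probe, and 1.03 and 0.64 for the dimmer. The dimmer probe alone would have put CDKN1B past 2-fold with cyclopamine, and the mean of both probes gave 0.55 with cyclopamine and −0.066 with GANT61. The probes were 1.41 apart in GANT61 minus DMSO, and 158 of 2175 probe pairs (7.26%) were at least as far apart. Between the treated arrays both probes were lower with GANT61, at −0.83 and −0.39, where the SD from probe pairs was 0.18. CDKN1C encodes p57, an imprinted inhibitor known for its role in growth before birth. Its single probe had 247 with DMSO, 268 after cyclopamine and 350 after GANT61, log2 differences of 0.11 and 0.50, the latter close to the SD of 0.51 from probe pairs. Between the treated arrays it was 0.39 higher with GANT61, where that SD was 0.20.

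No probe of the INK4 genes differed by 2-fold in any comparison. Of the CDKN2A starts printed above, one serves the CDK4 inhibitor p16 and the other ARF, a protein that binds the p53 inhibitor MDM2. The array has a probe designed on the transcript from each start. Whether each probe reads only that transcript was not tested, so the names p16 probe and ARF probe give the design only. The p16 probe had an intensity of 310 with DMSO, 294 after cyclopamine and 287 after GANT61, which gives log2 differences from DMSO of −0.074 and −0.11. The ARF probe had 232, 125 and 152, with the DMSO array above both treated arrays and log2 differences of −0.89 and −0.61. Another CDKN2A probe, on another transcript, was below the limit of background on every array, at 42.6 to 44.2. The p16 and ARF probes were 0.81 apart in cyclopamine minus DMSO, and 422 of 2175 probe pairs (19.4%) were at least as far apart. CDKN2B encodes p15, known as a target of TGF-β signaling. Its brightest probe was dim, at 81.2 with DMSO, 81.3 after cyclopamine and 99.1 after GANT61. Its second probe was at the limit of background, at 60.6, 65.8 and 61.1, and the remaining one was below the limit on every array. CDKN2D encodes p19, an inhibitor of CDK4 and CDK6, and had 117, 111 and 166 by its brighter probe. The GANT61 array was highest, with log2 differences of 0.50 from DMSO and 0.58 from cyclopamine. The SD from probe pairs was 0.37 and 0.22 for these. Its dimmer probe was below the limit on all 3 arrays, at 33.7 to 39.1.

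CDKN3 differs from the rest of the family, because it encodes a phosphatase that removes the activating phosphate of CDK2. Its single probe had an intensity of 976 with DMSO, 805 after cyclopamine and 632 after GANT61. It was lowest with GANT61, with log2 differences from DMSO of −0.28 and −0.63, which turned to 0.40 and 0.091 when scaled on the reference genes. Between the treated arrays, where this scaling hardly matters, the log2 difference was −0.35.

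Since CDKN1A is a p53 target, the other p53 target genes were set beside it. Of 25 with a probe, 21 were above background, and at least 2-fold higher were 3 of 20 with cyclopamine and 5 of 21 with GANT61, where 4.8% and 8.28% of all genes were. At least 2-fold lower were 0 and 1, where 6.44% and 9.77% of all genes were. Their median log2 difference was −0.022 with cyclopamine and 0.18 with GANT61, where all genes had 0.032 and 0.022. GDF15, a stress cytokine gene, was higher with both compounds, with an intensity of 79.4 with DMSO, 269 after cyclopamine and 391 after GANT61. PMAIP1 (NOXA), which promotes apoptosis, had 126, 315 and 349 by its brighter probe, and GADD45A, a growth arrest gene, had 215, 499 and 604. These 3 were lower on the DMSO array than on either treated array, by at least 2-fold. Their other probes were less far apart, GADD45A at log2 differences of 0.51 and 0.52 and PMAIP1 at 0.62 and 0.70. With the mean of all probes only 1 of these targets was at least 2-fold higher with cyclopamine.

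AEN, a nuclease gene that p53 induces, had a pattern like that of CDKN1A. It had an intensity of 233 with DMSO, 232 after cyclopamine and 954 after GANT61, a log2 difference of 2.03 from DMSO, and its dimmer probe had 0.90. It was the 1 target of the list for which GANT61 gave at least 2 times the cyclopamine intensity, as it did for 2.38% of all genes. PPM1D, a phosphatase that acts against p53, had 224, 332 and 510. MDM2, the ubiquitin ligase of p53, was above background with GANT61 alone, at 91.0, which makes it at least 1.43-fold higher there than on the other arrays. Against these stood TP53I3, an oxidoreductase gene, with 546, 513 and 263, and XPC, a sensor of DNA damage, with 1033, 577 and 552. BAX, a gene of apoptosis, had 285, 277 and 271, and BBC3 (PUMA), another, had log2 differences of −0.10 and −0.016. The p53 targets thus went both ways on these arrays. Scaled on the reference genes, 7 were at least 2-fold higher with cyclopamine and 10 with GANT61, and 0 were lower with GANT61. Under that scaling 3106 of all 10236 genes were higher with cyclopamine and 3682 of 10292 with GANT61.

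**Figure D3:**
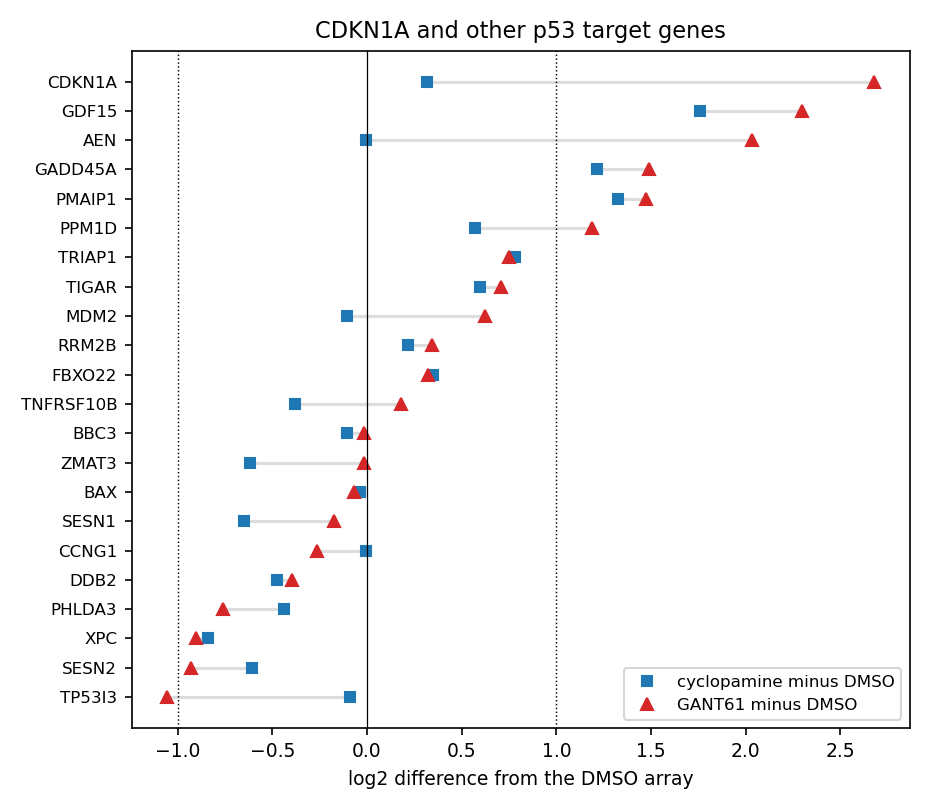
Log2 difference from the DMSO array of CDKN1A and 21 other p53 target genes above background, with cyclopamine (squares) and GANT61 (triangles), ordered by the GANT61 value, and dotted lines at 2-fold. CDKN1A and AEN are near 0 with cyclopamine and at 2.68 and 2.03 with GANT61, whereas GDF15, GADD45A and PMAIP1 passed 2-fold with both compounds.

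Among 15 other transcription factors known to act on CDKN1A or CDKN1B, EGR1 had the largest change. EGR1, an immediate early factor, had an intensity of 233 with DMSO, 132 after cyclopamine and 1173 after GANT61, log2 differences of −0.82 and 2.33. By the brightest probe of each gene it was the 1 factor of the 15 at least 2-fold away from DMSO with GANT61 (0 with cyclopamine). Of all genes, 8.28% were higher and 9.77% lower with GANT61, and 4.8% and 6.44% with cyclopamine. Like CDKN1A, EGR1 was high on the GANT61 array alone. MYC, which represses CDKN1A together with ZBTB17, had 3017, 2141 and 4453 by its brighter probe, and its other probe had 818, 1301 and 2510. Both MYC probes were highest with GANT61, with log2 differences from DMSO of 0.56 and 1.62, so that the dimmer probe alone passed 2-fold, and they disagreed on the side of cyclopamine. ATF3, a stress factor, had log2 differences of −0.017 and 0.64, and KLF6 had −0.79 and −0.33. FOXO3, which can induce CDKN1B, had 0.16 and 0.72 by one probe and −0.68 and −0.59 by another. SP1, which binds GC boxes, had 395, 417 and 327. The median of the 15 factors was −0.16 with cyclopamine and 0.054 with GANT61.

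By the distance between the pairs of log2 differences from DMSO, taken over the 3 arrays and 10441 genes, the gene most like CDKN1A was HSPA1B, at a distance of 0.074. HSPA1B encodes an inducible HSP70 chaperone, and it had 751 with DMSO, 926 after cyclopamine and 4573 after GANT61. Its sequence is nearly that of HSPA1A, so that its probe may read both. ADM, which encodes the peptide adrenomedullin, had 1355, 1769 and 6959 and lay at a distance of 0.33. The rule also named TM4SF19, a membrane protein gene, CYB5R2, a reductase gene, and FOSB, a subunit of AP-1. These were below the limit of background with DMSO, so their differences from DMSO are bounds and no distance or rank is given for them. By measured intensities, dim ones included, 151 genes (1.45%) had with GANT61 at least 2 times the intensity of either other array while they were within 2-fold between cyclopamine and DMSO.

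The cyclins and kinases that the family acts on showed few changes of 2-fold. Of 7 G1 and S phase genes above background, 0 were at least 2-fold higher and 1 lower with each compound. Of all genes, 4.8% were higher and 6.44% lower with cyclopamine, and 8.28% and 9.77% with GANT61, so these counts are near those shares. The gene lower with cyclopamine was CCNA2 (cyclin A2, of S phase and G2), which had 862 with DMSO, 405 after cyclopamine and 674 after GANT61. With GANT61 it was CDK6, a target of the INK4 proteins, which had 1407, 1259 and 691. CDK4, the other INK4 target, had 2425, 2197 and 1586. CCNE1 (cyclin E1), the partner of CDK2 that p21 and p27 inhibit, had 418, 243 and 645, lowest with cyclopamine and highest with GANT61, a log2 difference of 1.41 between the treated arrays. CDK2 had 2339, 1601 and 1965, CCND1 (cyclin D1) had 1576, 1582 and 1366, and CCND3 had 1827, 2385 and 2436. Of the 3 G2/M genes, CDK1 had log2 differences of 0.49 and 1.09, and 0.45 and 0.94 by its other probe. It was the 1 of these at least 2-fold higher with GANT61, as were 8.28% of all genes. CCNB1 had −0.045 and 0.29, and CCNB2 had −0.50 and −0.34. Medians over the 7 genes were −0.16 with cyclopamine and −0.25 with GANT61, and scaled on the reference genes these turn positive.

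Downstream of the kinases, RBL2 (p130), a pocket protein of resting cells, had 553 with DMSO, 330 after cyclopamine and 264 after GANT61. It was the 1 of 3 pocket protein genes that passed 2-fold, being lower with GANT61, as were 9.77% of all genes. RB1 had 166, 175 and 125, and RBL1 (p107) had 125, 178 and 139. Of 9 E2F and DP genes above background, 2 were at least 2-fold higher with GANT61 (8.28% of all genes) and 1 lower with cyclopamine (6.44%). With 9 genes such counts are not read as a result about the set. E2F3, an activating E2F, had 663, 1145 and 1813 in the same order, and TFDP2, a DP partner, had 216, 258 and 564 by the probe with the highest mean and log2 differences of −0.40 and 0.57 by the other. E2F4, an E2F that works mainly with p130 and p107, had 603, 286 and 474. Between the treated arrays 8 of the 9 were higher with GANT61 to any extent by their brightest probes, with a median of 0.36. All genes had a median of 0.015, and 51.3% were higher. The count depends on the probe, as TFDP1 had 0.15 by its brightest probe and −0.19 by its other.

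**Figure D4:**
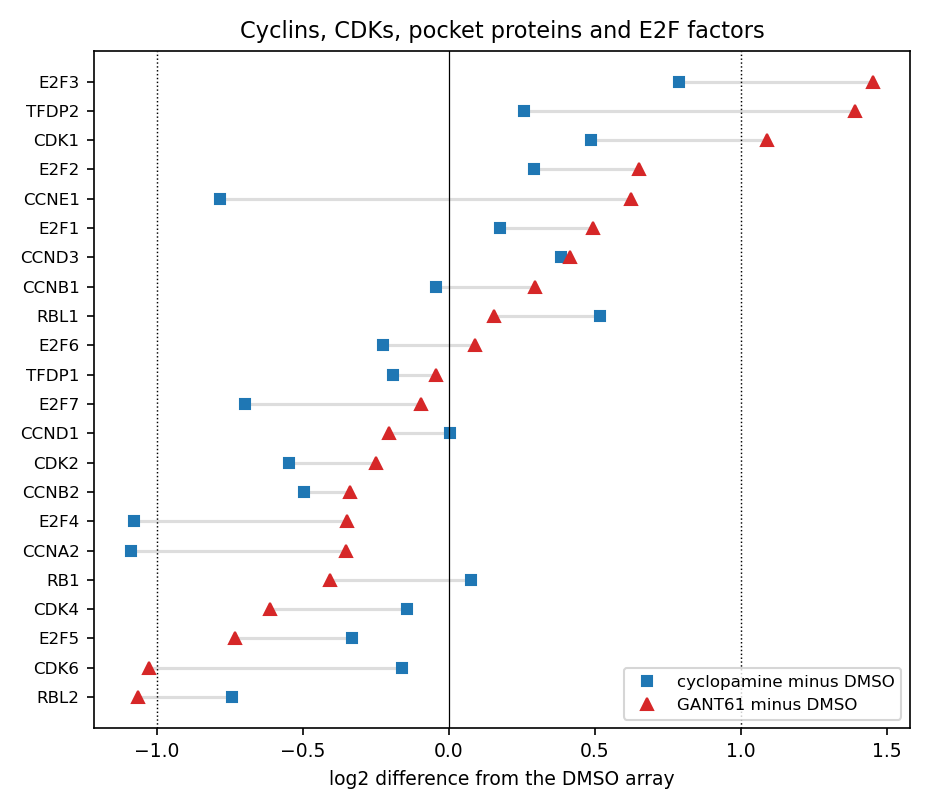
Log2 difference from the DMSO array of cyclins, CDKs, pocket proteins and E2F factors above background, with cyclopamine (squares) and GANT61 (triangles), ordered by the GANT61 value, and dotted lines at 2-fold. E2F3, TFDP2 and CDK1 lie past 2-fold higher with GANT61, CDK6 and RBL2 past 2-fold lower with GANT61, and CCNA2 and E2F4 past 2-fold lower with cyclopamine.

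For the ubiquitin ligases that destroy p21, p27 and p57, read with partners such as PCNA, the RNA of 12 of 12 listed genes was above background. This held on all 3 arrays. Their median log2 difference was −0.16 with cyclopamine and 0.069 with GANT61. SKP2, the subunit that recognizes p27, had 3018 with DMSO, 3063 after cyclopamine and 1941 after GANT61 by its brightest probe, and log2 differences of −0.89 and −0.49 by the next. CKS1B, its cofactor for p27, had 3363, 2606 and 2438. DTL, the subunit that recognizes p21 on PCNA, had 411, 295 and 507, and PCNA itself had 1095, 1547 and 1950. The 1 gene past 2-fold was CUL4A, the scaffold of the DTL ligase, with log2 differences of −1.03 and −1.61, but its other bright probe had 0.39 and −0.062. At least 2-fold lower were 6.44% of all genes with cyclopamine and 9.77% with GANT61.

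The CDK inhibitor genes were also read under other ways of processing. The scaling on the reference genes adds the same amount to every gene, so a change of sign under it follows from the size of the starting difference. In GANT61 minus DMSO, CDKN1A ran from 1.41 to 3.40 and stayed past 2-fold, and CDKN1B ran from −0.82 to −0.053. CDKN2A and CDKN3, at −0.11 and −0.63 as deposited, changed sign under that scaling. In GANT61 minus cyclopamine, CDKN1A ran from 1.37 to 2.39 and CDKN1B from −0.89 to −0.61, and CDKN2A was the 1 gene whose sign changed, with the mean of all probes and with the median of the probes above background.

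**Figure D5:**
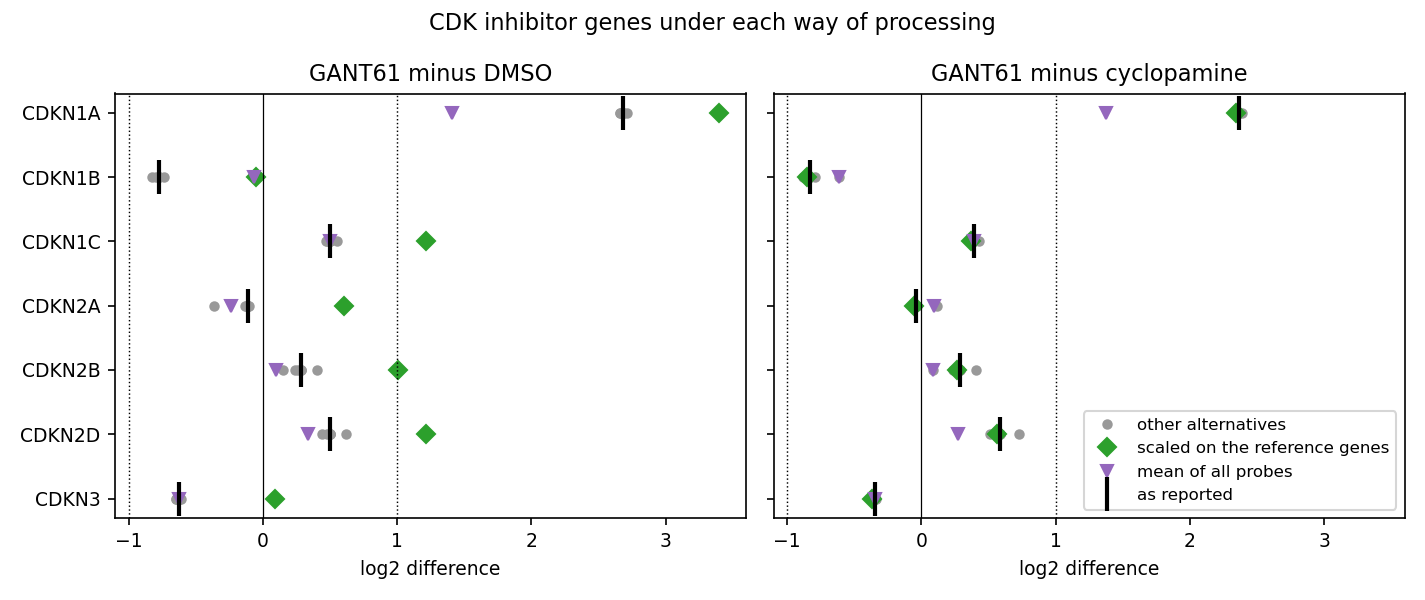
Log2 difference of the 7 CDK inhibitor genes in GANT61 minus DMSO (left) and GANT61 minus cyclopamine (right), as reported (black bars) and under 9 alternatives each (diamonds for the scaling on reference genes, triangles for the mean of all probes, gray points for the others), with dotted lines at 2-fold. The scaling on reference genes shifts all 7 genes by 0.72 on the left and by −0.020 on the right, and CDKN1A lies beyond 2-fold in both panels throughout.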

How the data were processed

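HCC-LM3 cells were profiled on Illumina HumanHT-12 v4 arrays, 1 per condition, from 300 ng of RNA, and the labels gave the condition of each array. The authors deposited signal intensity values normalized between the arrays, whose sorted values differ by at most 0.886% at any rank. For the software and any background correction, the sources used here give nothing, and no subtraction is apparent. A table from before normalization has 6 columns with headings that fit none of the samples, so they were left unused. Probe names came from the platform's annotation, updated through the GRCh38.p14 gene table, with 30071 of 30110 named probes matched by gene identifier, 8 probes with several genes left out and 17201 unnamed here. Some listed genes are not reported here.

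A gene is represented by its brightest probe (mean of log2 intensities), and it entered a comparison when above 1.5 times the most common intensity (in bins of 1) on at least 1 of both arrays. With 1 array per condition no test was made, the number of arrays limits the precision, and at least 2-fold stands in place of a test. The study's own threshold, a DiffScore, was not used here. A gene below the limit on 1 array has only a bound there, given as at least N-fold. The spread of a difference was estimated in 5 classes of brightness from probe pairs above the limit on all arrays. The text names the members with each probe and the 5 genes nearest to CDKN1A. From the lists it names a selection of genes with large changes or a role tied to a member, and not every gene with a large change. The members and lists were chosen with earlier results of these data known. The 2-fold rule was tested on simulated data, in which all probes of chosen bright genes were raised or lowered together. The other steps were not tested in this way. Alternatives were normexp correction with an offset of 50 and quantile normalization, subtraction of the most common intensity with an offset of 16, scaling on the reference genes or on the median of all genes, the mean of all probes or the median of those above background, a limit of 2 times the most common intensity, no filter, and 1.5-fold and 3-fold thresholds. Setting dim values to the limit was added after seeing the data. The tools were limma 3.58.1 in R 4.3.3, and numpy 2.4.6, pandas 2.3.3 and matplotlib 3.10.9 in Python 3.11.15.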

Additional observations from a re-analysis of the deposited data

How the results depend on the processing

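No paired analysis was possible because each condition has 1 array. Without replicates a value counted as moved when it shifted by more than the SD from probe pairs. Scaled on the reference genes, CDKN1A had a log2 difference from DMSO of 0.99 with cyclopamine and 3.40 with GANT61, 4 of the 7 CDK inhibitor genes passed 2-fold with GANT61 in place of 1, and 38 genes of the pathway lists did in place of 18. With the mean of all probes CDKN1A had 1.41 in GANT61 minus DMSO and 1.37 in GANT61 minus cyclopamine, because its other probe was below the limit of background. At 1.5-fold, 3 CDK inhibitor genes passed in GANT61 minus DMSO and 2 in GANT61 minus cyclopamine, with 41 pathway genes, and at 3-fold 8 pathway genes passed. The other alternatives left these results within 1.5 times their count or within the SD. Of all genes, 1636 were 1.5-fold and 59 were 3-fold higher with cyclopamine (1730 and 155 lower), 2192 and 177 higher with GANT61 (2170 and 295 lower), and 1075 and 54 higher with GANT61 than with cyclopamine (1144 and 70 lower). After subtraction of the most common intensity, 750 genes were at least 2-fold higher with cyclopamine in place of 491, and between the treated arrays 424 were higher and 566 lower in place of 241 and 355. Probes near the limit, such as those of CDKN2B, show little of a change.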

Other observations

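The genes that repress the INK4 locus were all above background. Of 7 such genes, 1 was at least 2-fold lower with cyclopamine (6.44% of all genes) and 1 at least 2-fold higher with GANT61 (8.28%). With 7 genes these counts are near those shares. The median log2 difference of the 7 was 0.23 with cyclopamine and 0.48 with GANT61. EED, a subunit of the Polycomb complex that methylates histone H3, had an intensity of 143 with DMSO, 244 after cyclopamine and 460 after GANT61. EZH2, its catalytic subunit, had 585, 273 and 392 by its brightest probe and 439, 260 and 353 by the next. Its dimmest probe had 256, 148 and 522, so that this probe differs from the others on the side of GANT61. KDM2B, a histone demethylase, had 1526, 1755 and 2929, BMI1 had 786, 919 and 1163, and CBX7, whose protein binds methylated histones, had 196, 115 and 122.

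The genes that lie near CDKN1A and CDKN2A were read as well. Near CDKN1A on chromosome 6, SRSF3, a splicing factor gene, had 430 with DMSO, 363 after cyclopamine and 288 after GANT61, and STK38, a kinase gene, had 855, 425 and 308. Both were lower with GANT61, by log2 differences of −0.58 and −1.47, where CDKN1A had 2.68. Scaled on the reference genes SRSF3 would be higher. Beside CDKN2A on chromosome 9, MTAP, an enzyme of methionine salvage, had 413, 300 and 376, and CDKN2B-AS1, the antisense transcript of the locus, was below the limit on every array.

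Of 8 senescence-associated genes above background, 1 was at least 2-fold higher and 1 lower with cyclopamine, and 2 were higher and 0 lower with GANT61. Of all genes 4.8% were higher and 6.44% lower with cyclopamine, and 8.28% higher and 9.77% lower with GANT61. The probe that represents the chemokine gene CXCL8 was below the limit with DMSO and had 88.4 with cyclopamine and 732 with GANT61, which with GANT61 is at least 11.5-fold above the DMSO limit. Its other probe was above the limit on every array, at 77.6, 82.9 and 309, with log2 differences from DMSO of 0.095 and 1.99, so that the size depends on the probe. IL6 was below the limit with DMSO and had 125 and 253, at least 1.97-fold and 3.98-fold higher, so that its call with cyclopamine rests on the dim DMSO value. IL1B, another cytokine gene, had 85.9 and 151 and was below the limit with GANT61, at least 2.38-fold lower than with cyclopamine. LMNB1, a lamin gene known to fall in senescent cells, had 199, 91.0 and 102, log2 differences of −1.13 and −0.97. IGFBP7 and IGFBP3 were within 0.34 of DMSO. Among the Hh genes read beside them, FOXM1 had 874, 199 and 215, GLI2 had 127, 108 and 74.0, and GLI1, PTCH1, HHIP and SMO were below the limit on every array. BCL2, which blocks apoptosis, had 195, 286 and 130 by its brightest probe, highest with cyclopamine, and its other bright probe had log2 differences from DMSO of 0.93 and −0.18.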
